A study of Mus musculus with 16 samples.

Results

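Iron handling was followed in primary mouse hepatocytes through 10 genes of iron uptake, storage and export: *Trf*, *Tfrc*, *Tfr2*, *Hamp*, *Slc40a1*, *Slc11a2*, *Fth1*, *Ftl1*, *Ireb2* and *Aco1*. They were taken by symbol from the table of all genes, where each symbol had 1 entry, so that the set holds 10 of 55450 genes quantified. CPM below stands for counts of a gene per 1e6 counts of its library, scaled for library composition. All 10 genes had an average CPM of 1 or more and were tested, as were 11675 genes in all.

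Hepatocytes make most of the transferrin of blood plasma and hold much of the body's iron reserve. Iron-loaded transferrin enters cells by transferrin receptors, iron that is not used is stored inside ferritin shells, and ferroportin carries it back out. When iron is short, iron regulatory proteins bind a hairpin in the messenger RNA, the iron-responsive element, which blocks translation of ferritin and ferroportin messages and protects the message of transferrin receptor 1 from decay. Hepcidin, which the liver makes when iron is plentiful, removes ferroportin from cell surfaces.

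RNA was sequenced in bulk from hepatocytes of wild-type mice in 16 libraries, 4 for each of 4 treatments. Cells were left untreated, or were given overnight 10 mM sodium itaconate, a chemically defined mixture of fatty acids and cholesterol diluted 10-fold, or both. Every group, the untreated one included, was kept in DMEM with 5% FBS and an insulin-transferrin-selenium supplement, so that transferrin protein was added to the medium of all 4 groups. The libraries of a treatment carry the replicate letters A to D, and each letter has 1 library of every treatment. The study's methods describe male C57BL/6J mice, all young adults. The labels give neither sex nor age, and do not say whether the letters are separate mice or isolations, so that p values measure the spread between these libraries, which may be technical.

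Totals of expected counts ran from 22346049 to 28619798 in untreated cells, 27211869 to 35512004 with itaconate, 23562859 to 28558693 in lipid-treated and 25812579 to 35378517 in lipid + itaconate-treated hepatocytes. The 10 genes took 2.51 ± 0.162% of the counts in untreated hepatocytes, 2.47 ± 0.157% with itaconate, 2.66 ± 0.263% with lipid and 2.64 ± 0.0935% with both (SD, n = 4). All 10 hepatocyte markers listed were above the filter, with albumin (*Alb*) at 35227 ± 6197 CPM in untreated cells (SD, n = 4). The library of replicate B with lipid + itaconate stood apart from its group. The chi-square per gene, which is near 1 where libraries differ by counting alone, was 106 to 147 between it and the other 3, against 10.0 to 64.5 in any other pair within a treatment. Mitochondrial transcripts took 6.01% of the counts in lipid + itaconate replicate C, against 3.27% to 4.97% in the other libraries.

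The lipid mixture went with the largest changes of the iron genes. Transcripts for transferrin receptor 1, ferroportin, the iron regulatory protein *Aco1* and both ferritin subunits fell with lipid, and those for transferrin and hepcidin rose, by 10.4% to 33.9% in size. In edgeR's quasi-likelihood test, 7 of the 10 genes had an adjusted p (p corrected for the number of genes tested) under 0.05 for lipid against untreated, 2 of them higher and 5 lower. Of all 11675 genes tested, 47.5% passed in that comparison, 23.8% higher and 23.7% lower. The median log2 fold change (where 1 is a level 2 times as high) was −0.10 over the 10 genes and 0.00 over all genes, and the median size of the change was 0.17 against 0.19. The typical change of the 10 genes was thus no larger than that of all genes tested.

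The same contrast in the presence of itaconate, lipid + itaconate against itaconate, had 6 of the 10 genes past the threshold by the quasi-likelihood test of edgeR, 2 higher and 4 lower. Beside this, 47% of all genes passed, 23.5% higher and 23.5% lower. Itaconate alone gave 1 of 10 (*Tfrc*, higher), beside 4.91% of all genes (1.96% higher and 2.95% lower). In lipid-treated cells itaconate also gave 1 of 10 (*Slc40a1*, higher), beside 2.58% of all genes (1.32% higher and 1.26% lower). For the interaction, the difference between the itaconate effects with and without lipid, 0 of the 10 genes passed in edgeR's test or in DESeq2's Wald test. Before adjustment 1 of the 10 genes and 1004 of all genes had an edgeR p under 0.05 for the interaction, and 0.00857% of all genes (1 gene) passed after adjustment. Without the lipid + itaconate library of replicate B the members past the threshold numbered 1 of 10 for itaconate, 7 for lipid, 0 for itaconate in lipid-treated cells, 5 for lipid in itaconate-treated cells and 0 for the interaction. Over all genes the same fit without that library gave 748, 5686, 136, 5288 and 4, against 573, 5546, 301, 5483 and 1 with it. When lipid + itaconate replicate C was left out instead, 1051 genes passed for itaconate and 891 for itaconate in lipid-treated cells. Among the members, *Slc40a1*, *Fth1* and *Ftl1* then passed for itaconate in lipid-treated cells. These comparisons share libraries: both comparisons against untreated cells use the same 4 untreated libraries, and each treated group enters more than 1 comparison.

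**Figure D1:**
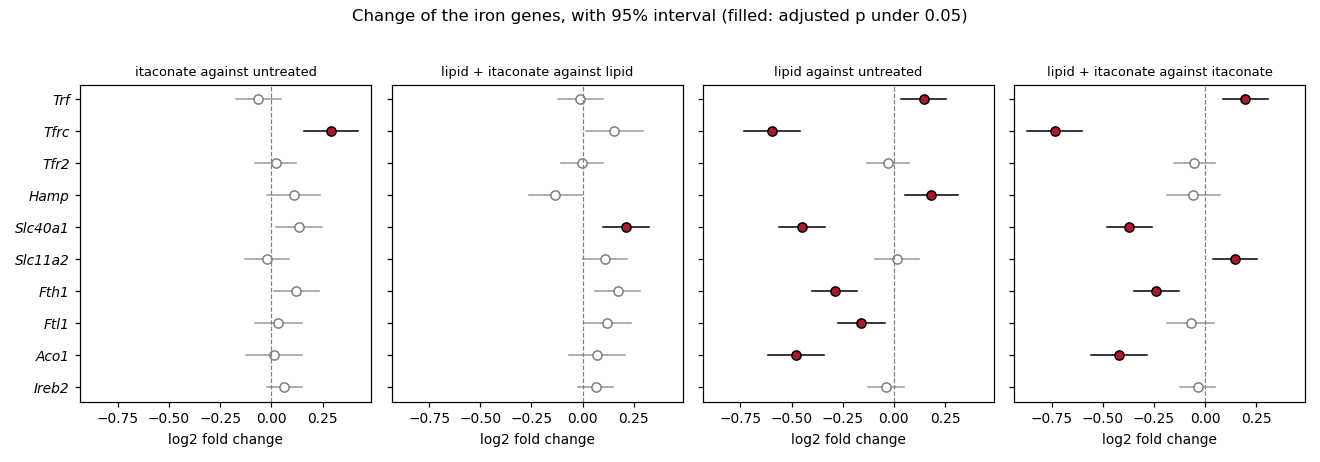
Log2 fold change of each of the 10 iron genes (point) with its 95% interval (line) from edgeR's quasi-likelihood model of 16 libraries, in the 4 pairwise comparisons. Filled points have an adjusted p under 0.05: 1, 1, 7 and 6 genes from left to right, with *Tfrc* the furthest from 0 in both lipid comparisons (−0.60 and −0.73).

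Levels can be set side by side only per length of the gene's exons. On that scale transferrin led, with a mean of 4466 CPM per kb over the 16 libraries (3660 to 5464), followed by ferritin light chain *Ftl1* at 4115 CPM per kb (3683 to 4601). These ranges overlapped, and *Trf* ranked 8 and *Ftl1* 11 among the genes tested. Ferritin heavy chain *Fth1* came next at 1210 CPM per kb (978 to 1560), and hepcidin (*Hamp*) at 798 CPM per kb (584 to 1091) overlapped with it. The other members were all below 54 CPM per kb in every library: *Aco1* at 42.0, *Tfr2* at 41.5, *Slc40a1* at 26.8, *Slc11a2* at 18.6, *Ireb2* at 10.1 and *Tfrc* at 8.06 CPM per kb. Among these, *Aco1* (31.0 to 53.6) spanned the whole range of *Tfr2* (39.2 to 46.7), and *Tfrc* (5.28 to 11.9) that of *Ireb2* (9.33 to 11.1), while *Slc40a1* (18.9 to 34.1) overlapped with *Slc11a2* (16.1 to 20.8). *Tfr2*, which binds iron-loaded transferrin and takes part in hepcidin control, was thus several times more abundant per length than *Tfrc*, with no overlap in 16 libraries. Within groups *Hamp* varied most, with a coefficient of variation of 20.7%, and *Ireb2* least, at 4.03%.

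**Figure D2:**
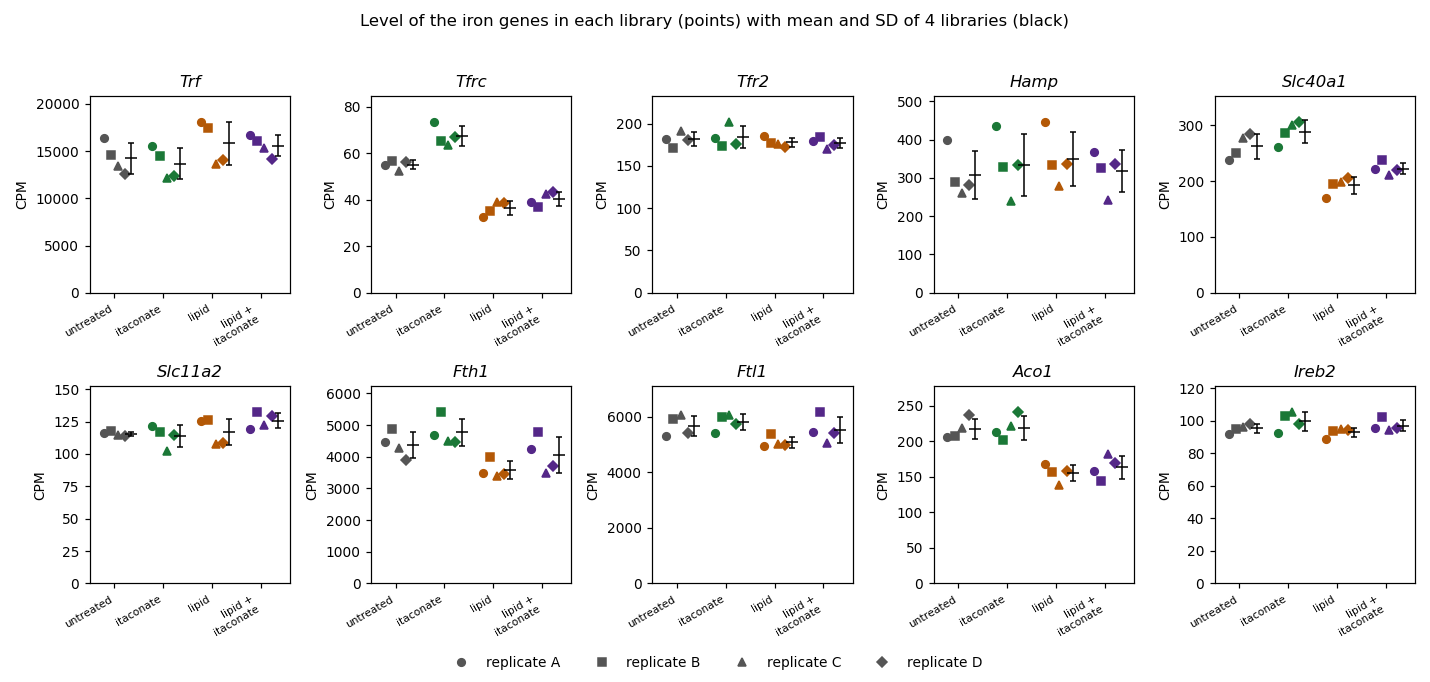
CPM of each iron gene in every library (points, 1 shape per replicate letter) for the 4 treatments, with the mean and SD of 4 libraries in black. Each vertical axis starts at 0. *Tfrc*, *Slc40a1* and *Aco1* lie lower in both lipid groups than in both groups without lipid, with no library of one kind among the other.

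Transferrin, the plasma carrier that binds ferric iron, is encoded by *Trf* (ENSMUSG00000032554.15, minus strand, chr9:103204001-103230444 of GRCm38). Its level was 16380, 14588, 13471 and 12608 CPM in untreated replicates A to D and 18139, 17443, 13653 and 14027 CPM with lipid. With itaconate it was 15541, 14534, 12153 and 12384 CPM, and with both agents 16765, 16087, 15287 and 14184 CPM. The groups overlapped, and replicates A and B were higher than C and D in every treatment, but within each letter the lipid library was above the untreated one. The log2 fold change with lipid was 0.15 (SE of the estimate 0.05; adjusted p = 0.0300 by the quasi-likelihood test of edgeR), a rise of 10.6%. Among cells given itaconate, it was 0.20 (SE 0.05; adjusted p = 0.00573 in the same edgeR test), again higher in 4 of 4 letters. Itaconate gave −0.06 without lipid and −0.01 with it, neither past the threshold (adjusted p = 0.495 and 0.930 in edgeR's test).

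The calls of *Trf* rest on the comparison within letters. Without the replicate letter in the model, the adjusted p in edgeR's test was 0.329 for lipid and 0.213 for lipid in the presence of itaconate, and the second was 0.0855 with only the 8 libraries of that comparison. The lipid call also ended without lipid replicate A (0.0886), B (0.126) or D (0.0589), or untreated replicate B (0.0900) or D (0.0877), as adjusted p in edgeR's test. The readthrough gene *Gm20425* overlaps *Trf* on the same strand and held 0.132% as many counts.

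Transferrin receptor 1 (*Tfrc*, ENSMUSG00000022797.16, plus strand, chr16:32608920-32632794), which takes iron-loaded transferrin into the cell, changed most. It was measured at 55.0, 56.8, 52.4 and 56.1 CPM in untreated replicates A to D, and at 32.7, 35.3, 38.9 and 38.7 CPM with lipid. With itaconate it was at 73.7, 65.1, 63.7 and 67.0 CPM, and with lipid + itaconate at 39.2, 36.9, 42.5 and 43.5 CPM. The itaconate libraries were the highest, the untreated ones came next with no overlap, and both lipid groups lay below and overlapped with each other. With lipid *Tfrc* fell, with a log2 fold change of −0.60 (SE 0.06; adjusted p = 2.85e-06 by the quasi-likelihood test of edgeR) or −33.9%. Where itaconate was present, the fall with lipid was −0.73 (SE 0.06; adjusted p = 5.02e-07 in edgeR's test), or −39.9%. Both were seen in 4 of 4 letters and passed under every alternative model and with any library left out.

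Itaconate raised *Tfrc* by 22.4%, with a log2 fold change of 0.29 (SE 0.06; 95% interval 0.16 to 0.42; adjusted p = 0.0147 by the quasi-likelihood test of edgeR), and every itaconate library was above every untreated one. In lipid-treated cells the itaconate difference was 0.15 (95% interval 0.02 to 0.29), higher in 4 of 4 letters but with an adjusted p of 0.229 in edgeR's test. The effect with lipid was not shown to differ from that without it, as the interaction was −0.14 (95% interval −0.33 to 0.05; adjusted p = 0.716 in edgeR's test). The call without lipid ended in 4 settings, with adjusted p in edgeR's test of 0.0842 without the replicate letter, 0.0542 without itaconate replicate A, 0.0639 without untreated replicate C and 0.0564 without untreated replicate D.

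Transferrin receptor 2 (*Tfr2*, ENSMUSG00000029716.13, plus strand, chr5:137569840-137587481) passed in no comparison. Its 16 libraries ran from 170 to 203 CPM, and group means were 181 ± 8.28 in untreated hepatocytes, 184 ± 12.9 with itaconate, 178 ± 5.58 with lipid and 177 ± 6.29 CPM with both (SD, n = 4). The 95% interval of its log2 fold change was −0.13 to 0.07 with lipid and −0.08 to 0.12 with itaconate. *Tfrc* and *Tfr2* thus had different outcomes in the lipid test, but the difference between the genes was not tested.

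Hepcidin, the peptide hormone of the liver that sets iron export, comes from *Hamp* (ENSMUSG00000050440.8, minus strand, chr7:30942368-30944032). Its level was 400, 288, 261 and 281 CPM in untreated replicates A to D, and 447, 334, 280 and 337 CPM with lipid. Itaconate-treated cells had 437, 328, 239 and 333 CPM and cells with both agents 369, 325, 241 and 336 CPM. Replicate A was the highest and C the lowest library in each of the 4 treatments, and the groups overlapped. Within letters the lipid library was above the untreated one in 4 of 4, with a log2 fold change of 0.18 (SE 0.06; adjusted p = 0.0220 by the quasi-likelihood test of edgeR), a rise of 13.5%. With itaconate in the medium, the lipid difference was −0.06 (95% interval −0.19 to 0.07; adjusted p = 0.448 in edgeR's test). *Hamp* was the gene counted above for the interaction before adjustment. Its interaction was −0.24 (95% interval −0.43 to −0.06), lower in 4 of 4 letters, with an edgeR quasi-likelihood p of 0.0129 over 16 libraries and an adjusted p of 0.449. The lipid effect is therefore not shown to differ between cells with and without itaconate.

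The lipid call of *Hamp* ended without the replicate letter (adjusted p = 0.447 in edgeR's test), without lipid replicate A (0.0549) or C (0.0624), and without untreated replicate B (0.0757) or D (0.102). *Hamp2*, a close copy of *Hamp*, held 0.979% as many counts, and the call was the same when the counts of both were summed.

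Ferroportin (*Slc40a1*, ENSMUSG00000025993.10, minus strand, chr1:45908068-45926523) is the known iron exporter of mammalian cells and the target of hepcidin. Its counts gave 238, 250, 278 and 284 CPM in untreated replicates A to D, and 170, 196, 198 and 206 CPM with lipid. With itaconate they gave 261, 285, 301 and 307 CPM, and with lipid + itaconate 221, 237, 211 and 221 CPM. All lipid libraries were below all untreated ones, and all lipid + itaconate libraries lay between those of lipid alone and those without lipid. The log2 fold change with lipid was −0.45 (SE 0.05; adjusted p = 7.42e-06 by the quasi-likelihood test of edgeR), or −26.6%, and with lipid in the presence of itaconate it was −0.37 (SE 0.05; adjusted p = 4.90e-05 in edgeR's test), or −22.6%. Both passed under every alternative model and with any library left out.

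Itaconate moved *Slc40a1* the other way in lipid-treated cells, by 0.21 on the log2 scale (SE 0.05; 95% interval 0.10 to 0.33; adjusted p = 0.0449 by the quasi-likelihood test of edgeR), or 15.9%, with no overlap between the groups. Without lipid the difference was 0.14 (95% interval 0.02 to 0.25), higher in 4 of 4 letters, with an adjusted p of 0.146 in edgeR's test, or 0.00908 with only the 8 libraries of the comparison. The interaction was 0.08 (adjusted p = 0.824 in edgeR's test), so that the 2 effects are not shown to differ. The call in lipid-treated cells lies close to the threshold. By edgeR its adjusted p came to 0.0508 with the filter of filterByExpr, 0.284 when the 8 libraries were fitted alone and 0.345 without the replicate letter. With 1 library left out it stayed under 0.05 only without untreated B (0.0472), lipid + itaconate C (0.00746) or lipid + itaconate D (0.0384), and was 0.0546 to 0.179 without any of the other 13 libraries, 0.132 of these without lipid + itaconate B.

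Macrophages also carry ferroportin, and markers of macrophages and Kupffer cells moved with lipid. By the study's methods, the hepatocytes had been separated from other liver cells by slow centrifugation, and their high purity was judged by eye from cell shape and size. Of 14 such markers 10 were tested, of which 6 fell and 1 rose with lipid, and 9 fell and 1 rose with lipid in the presence of itaconate, in edgeR's test. Their summed level was 191, 236, 307 and 264 CPM in untreated replicates A to D, 239, 296, 338 and 319 CPM with lipid, 169, 227, 259 and 238 CPM with itaconate and 220, 254, 312 and 326 CPM with both. Most of that sum was *Cd68*, a lysosomal protein, at a mean of 218 CPM over all libraries, which rose with lipid. The other 13 markers summed to 44.6, 54.2, 64.4 and 48.2 CPM in untreated cells, 32.0, 43.9, 38.8 and 29.0 CPM with lipid, 44.5, 66.9, 65.6 and 54.7 CPM with itaconate and 24.9, 42.3, 25.5 and 28.0 CPM with both. *Vsig4*, *Timd4*, *Cd163* and *Ptprc* were under the filter and no marker of this list was at 0 in all libraries. With itaconate alone 1 of the 10 tested was higher (*Lyz2*) and 1 lower (*Cd68*). In lipid-treated cells 1 was lower with itaconate (*C1qb*, −0.65, adjusted p = 0.0279 in edgeR's test), and 9 of the 10 had negative changes (median −0.38). Over all genes tested, 47.5% passed with lipid and 47% with lipid in the presence of itaconate. The shares were 4.91% with itaconate alone and 2.58% with itaconate in lipid-treated cells. In bulk RNA, fewer cells of a type and less RNA per cell cannot be told apart, and the part of macrophages in the *Slc40a1* result was not tested. At erythroid markers, all 7 in the table were under the filter, with a sum of at most 3.45 CPM in any library.

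Markers of other liver cells were looked at in the same way. Of 10 liver endothelial markers 8 were tested, and 2 were higher and 1 lower with lipid, with sums of 18.4 to 30.1 CPM in untreated and 19.6 to 33.1 CPM in lipid-treated libraries and *Cdh5* the most abundant. Of 9 stellate cell markers only *Reln* was tested and it did not pass with lipid, while the cholangiocyte list had 3 of 7 genes tested, all lower with lipid, a sum that went from 613 to 1184 CPM in untreated to 343 to 619 CPM in lipid-treated libraries with *Spp1* the most abundant, and *Cftr* at 0. Of the 10 hepatocyte markers 1 was higher and 3 lower with lipid, and their sum was 40940 to 57393 CPM in untreated and 35423 to 48087 CPM in lipid-treated libraries. With lipid in the presence of itaconate, 1 endothelial marker was higher and 1 lower, *Reln* was lower (−0.23, adjusted p = 0.0411 in edgeR's test), all 3 cholangiocyte markers tested were lower, and 1 hepatocyte marker was higher and 5 lower. With itaconate alone 1 endothelial marker was lower (*Oit3*, −0.85, adjusted p = 0.0325 in edgeR's test). In lipid-treated cells 0 endothelial markers passed with itaconate, and all 8 had negative changes (median −0.30). No hepatocyte, stellate cell or cholangiocyte marker passed in an itaconate comparison. The shares of all genes tested that passed are those given with the macrophage markers. The part of these cell types in the changes of the iron genes was not tested.

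The divalent metal transporter *Slc11a2* (ENSMUSG00000023030.16, minus strand, chr15:100387898-100425072) carries ferrous iron across membranes, including out of endosomes. It was at 116 ± 1.67 CPM in untreated hepatocytes, 114 ± 8.24 with itaconate, 117 ± 10.2 with lipid and 126 ± 5.88 CPM with both (SD, n = 4). Lipid alone gave a log2 fold change of 0.02 (95% interval −0.09 to 0.12). With itaconate also given, it gave 0.14 (SE 0.05; adjusted p = 0.0294 by the quasi-likelihood test of edgeR), higher in 3 of 4 letters and with overlapping groups, and the interaction of 0.13 did not pass (adjusted p = 0.650 in edgeR's test). The call ended in 7 of 22 alternatives, with adjusted p in edgeR's test of 0.0543 with only the 8 libraries, 0.0905 without the replicate letter, 0.0971 without itaconate replicate B, 0.119 without itaconate replicate C, and 0.0689, 0.0702 and 0.107 without lipid + itaconate replicates B, C and D.

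Ferritin is a shell of heavy chains, which oxidise iron, and light chains, which help it to form a mineral core. The heavy chain gene *Fth1* (ENSMUSG00000024661.7, plus strand, chr19:9980598-9985098) was at 4480, 4880, 4268 and 3902 CPM in untreated replicates A to D and at 3485, 3987, 3394 and 3469 CPM with lipid. With itaconate its level was 4694, 5411, 4504 and 4463 CPM, and with lipid + itaconate 4245, 4785, 3484 and 3705 CPM. Replicate B was the highest in each of the 4 treatments, and in the lipid group its library alone reached into the untreated range. The log2 fold change with lipid was −0.29 (SE 0.05; adjusted p = 0.000326 by the quasi-likelihood test of edgeR), or −18.1%, lower in 4 of 4 letters. In the presence of itaconate it was −0.24 (SE 0.05; adjusted p = 0.00161 in edgeR's test), and that adjusted p was 0.0849 without the replicate letter. Itaconate gave 0.12 without lipid (95% interval 0.01 to 0.23; adjusted p = 0.192 in edgeR's test) and 0.17 with it (95% interval 0.06 to 0.28; adjusted p = 0.0908), each in 4 of 4 letters. The first was past the threshold with only the 8 libraries (adjusted p = 0.0372 in edgeR's test). The second was past it with no filter (0.0166, edgeR), in DESeq2's Wald test (0.0165) and without lipid + itaconate replicate C (0.0108, edgeR).

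The light chain gene *Ftl1* (ENSMUSG00000050708.16, minus strand, chr7:45457944-45459884) had 5294, 5910, 6056 and 5409 CPM in untreated replicates A to D and 4935, 5371, 5018 and 4976 CPM with lipid. In itaconate-treated cells it had 5413, 5974, 6056 and 5741 CPM, and with both agents 5448, 6166, 5049 and 5414 CPM. Lipid-treated libraries were lower within each letter, and replicate B overlapped with the untreated group. The change was −0.16 on the log2 scale (SE 0.05; adjusted p = 0.0241 by the quasi-likelihood test of edgeR), or −10.4%. Where itaconate was present, it was −0.07 (95% interval −0.19 to 0.04; adjusted p = 0.293 in edgeR's test). Itaconate in lipid-treated cells gave 0.12 (95% interval 0.01 to 0.23; adjusted p = 0.264 in edgeR's test), or 0.0250 as adjusted p without lipid + itaconate replicate C. The lipid call of *Ftl1* ended with adjusted p in edgeR's test of 0.101 without the replicate letter, 0.0582, 0.0665 and 0.0531 without lipid replicates B, C and D, and 0.0993 without untreated replicate C. Near-identical copies of the ferritin genes took few counts, 0.697% of those of *Ftl1* for *Ftl1-ps1* and at most 0.00575% for any other, and sums with these copies left each call of *Fth1* and *Ftl1* as it was.

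The ratio of *Fth1* to *Ftl1* counts, looked at after the values were seen and given with no test, was 0.775 ± 0.0718 in untreated hepatocytes, 0.823 ± 0.0756 with itaconate, 0.705 ± 0.0275 with lipid and 0.732 ± 0.0523 with both (SD, n = 4). The ratio was 0.676 to 0.742 with lipid and 0.744 to 0.906 with itaconate, next to each other without overlap, and the ranges of all other pairs of groups overlapped. Within letters, the ratio was lower with lipid than untreated in 4 of 4, higher with itaconate than untreated in 4 of 4, lower with both agents than with itaconate in 4 of 4, and higher with both than with lipid in 3 of 4.

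The iron regulatory proteins are encoded by *Aco1*, whose protein is an aconitase when it holds an iron-sulfur cluster and binds RNA without it, and *Ireb2*, whose protein is degraded when iron is plentiful. *Aco1* (ENSMUSG00000028405.9, plus strand, chr4:40143081-40198338) was at 206, 207, 218 and 237 CPM in untreated replicates A to D and at 167, 157, 139 and 159 CPM with lipid. The itaconate libraries had 213, 201, 221 and 241 CPM and those with both agents 158, 144, 183 and 169 CPM. All 8 libraries with lipid were below all 8 libraries without it. The log2 fold change with lipid was −0.48 (SE 0.06; adjusted p = 2.63e-05 by the quasi-likelihood test of edgeR), or −28.2%, and in the presence of itaconate −0.42 (SE 0.06; adjusted p = 9.52e-05 in edgeR's test), or −25.3%. Both were lower in 4 of 4 letters and passed under every alternative model and with any library left out. Itaconate gave 0.01 without lipid (95% interval −0.12 to 0.15) and 0.07 with it (95% interval −0.07 to 0.21).

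*Ireb2* (ENSMUSG00000032293.8, plus strand, chr9:54863789-54912530) passed in no comparison. Its libraries ran from 88.5 to 105 CPM, with group means of 95.2 ± 2.62 in untreated hepatocytes, 99.5 ± 5.63 with itaconate, 92.8 ± 2.91 with lipid and 96.9 ± 3.57 CPM with both (SD, n = 4). The 95% interval of its log2 fold change was −0.12 to 0.05 with lipid and −0.02 to 0.15 with itaconate.

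The iron-responsive elements of these genes are shown because they divide the members by how iron acts on the message. A motif with a bulged C, 5 bases, the loop CAGTGN and 5 bases that pair with the first 5 (written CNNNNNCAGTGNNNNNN, with G:T pairs allowed and only the transcript's strand searched) was looked for in the untranslated regions of GENCODE transcripts. It was in the 5′ UTR of 31 of 20916 protein-coding genes (0.148%) and in the 3′ UTR of 129 of 21045 (0.613%). Of the 10 genes, *Fth1*, *Ftl1* and *Slc40a1* held it once in the 5′ UTR and *Tfrc* held it 4 times in the 3′ UTR. Of 10 further genes listed for IRP control or other elements, *Alas2*, the erythroid form of the first enzyme of heme synthesis, held it in the 5′ UTR. Each match is shown as 27 bases of GRCm38, 5′ to 3′, with the bulged C and the loop in capitals.
Fth1, 5′ UTR, chr19:9982733-9982759, plus strand: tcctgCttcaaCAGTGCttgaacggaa
Ftl1, 5′ UTR, chr7:45459780-45459806, minus strand: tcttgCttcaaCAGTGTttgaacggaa
Slc40a1, 5′ UTR, chr1:45925466-45925492, minus strand: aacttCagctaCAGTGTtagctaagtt
Alas2, 5′ UTR, chrX:150547459-150547485, plus strand: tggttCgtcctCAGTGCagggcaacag
Tfrc, 3′ UTR, chr16:32631220-32631246, plus strand: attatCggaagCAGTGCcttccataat
Tfrc, 3′ UTR, chr16:32631599-32631625, plus strand: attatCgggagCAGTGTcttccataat
Tfrc, 3′ UTR, chr16:32631664-32631690, plus strand: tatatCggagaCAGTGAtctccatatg
Tfrc, 3′ UTR, chr16:32631711-32631737, plus strand: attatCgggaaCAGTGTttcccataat

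With lipid, the genes with the motif in the 5′ UTR (*Fth1* −0.29, *Ftl1* −0.16, *Slc40a1* −0.45 and *Alas2* −0.35 as log2 fold changes) and the gene with it in the 3′ UTR (*Tfrc* −0.60) all had lower transcript levels, with adjusted p from 2.85e-06 to 0.0241 in edgeR's test. Messages with the element at either end therefore moved the same way. The counts measure transcripts, and neither translation of the messages nor iron in the cells was measured. No match in *Slc11a2* and the other members says only that these letters are not in their annotated UTRs.

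Among 17 further genes of iron uptake and reduction, 14 were tested, and 4 were higher and 6 lower with lipid, with a median log2 fold change of −0.13 against 0.00 over all genes tested. The largest was a fall of *Steap4*, a metalloreductase of the STEAP family, from 526 ± 69.3 CPM in untreated to 225 ± 75.0 CPM in lipid-treated hepatocytes (SD, n = 4). Its log2 fold change was −1.27 (adjusted p = 1.34e-07 by the quasi-likelihood test of edgeR), with no overlap. *Steap4* was also among the genes that moved with itaconate in lipid-treated cells, by 0.46 to 307 ± 86.1 CPM (adjusted p = 0.0264 in edgeR's test), and it fell by 1.01 on the log2 scale with lipid in the presence of itaconate (adjusted p = 1.62e-06 in edgeR's test). *Slc46a1*, a folate transporter that also takes up heme, rose with lipid from 24.2 ± 1.55 to 31.6 ± 1.96 CPM (log2 fold change 0.39, adjusted p = 2.57e-05 in edgeR's test). *Slc48a1*, a heme transporter of lysosomes, fell from 489 ± 37.0 to 404 ± 24.5 CPM (−0.27, adjusted p = 0.000178 in edgeR's test). With itaconate in the medium, 3 genes of this list were higher and 6 lower with lipid, among them *Slc39a8*, a zinc, manganese and iron importer, at 0.34 (adjusted p = 0.000221 in edgeR's test). The *Steap4* call for itaconate in lipid-treated cells ended without the replicate letter (adjusted p = 0.506, edgeR) and without lipid + itaconate replicate A (0.110) or B (0.0773) or lipid replicate C (0.0784) or D (0.0974). With itaconate alone 0 of the 14 passed. Over all genes tested, 47.5% passed with lipid and 47% with lipid in the presence of itaconate. With itaconate 4.91% passed, and 2.58% with itaconate in lipid-treated cells. These shares stand beside the counts of this list and of each list below.

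Of 13 other genes of iron storage, chaperones and export, 9 were tested. With lipid 1 was higher and 5 lower (median −0.19), beside 23.8% and 23.7% of all genes tested. Ceruloplasmin (*Cp*), the plasma ferroxidase that works with ferroportin, fell from 2285 ± 198 CPM in untreated to 1242 ± 242 CPM in lipid-treated hepatocytes (SD, n = 4), with no overlap. The log2 fold change was −0.89 with lipid (adjusted p = 7.13e-06 by the quasi-likelihood test of edgeR) and −0.78 with lipid in the presence of itaconate (adjusted p = 2.86e-05 in edgeR's test). *Abcg2*, an efflux pump that also carries porphyrins, fell by 0.40 with lipid on the log2 scale (adjusted p = 2.78e-06 in edgeR's test) and by 0.39 in the presence of itaconate. The iron chaperones *Pcbp2* (−0.19 with lipid, adjusted p = 0.000823) and *Pcbp1* (−0.23 with lipid in the presence of itaconate, adjusted p = 0.00119) also fell in edgeR's test. With lipid in the presence of itaconate 0 were higher and 4 lower, and neither itaconate comparison gave a gene past the threshold. *Ncoa4*, the receptor for ferritin breakdown, did not pass in any comparison (0.16 with lipid, adjusted p = 0.0676 in edgeR's test), and was named, like *Hfe2*, *Bmp6*, *Fbxl5* and *Hmox1* here, after its values were seen.

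**Figure D3:**
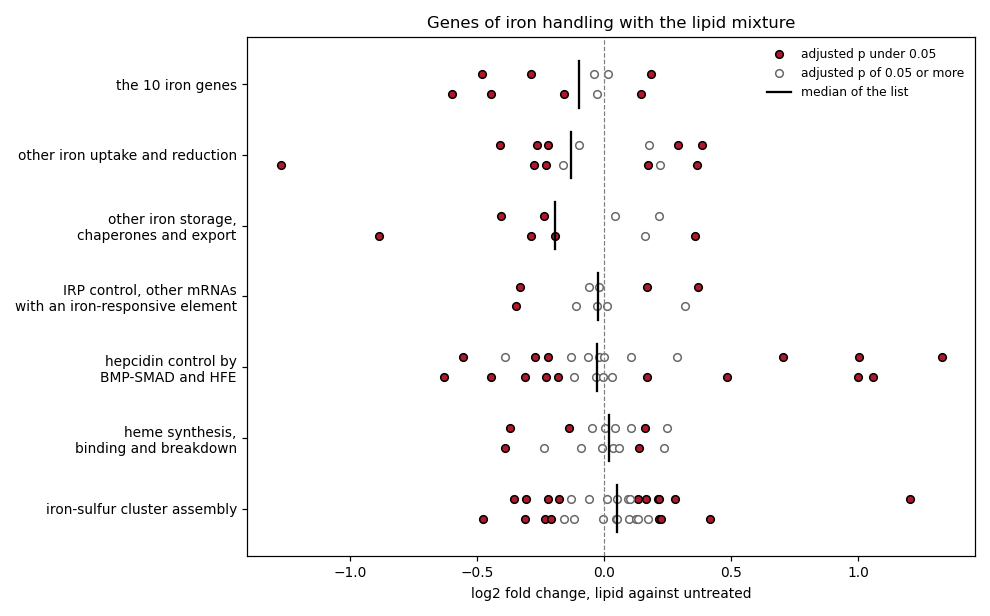
Log2 fold change for lipid against untreated of each tested gene of the 10 iron genes and of 6 further lists (points, filled where the adjusted p was under 0.05 in edgeR's test), with the median of each list as a bar. The points are spread slightly by height so that they can be seen, and medians run from −0.19 (other storage, chaperones and export) to 0.05 (iron-sulfur cluster assembly).

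In the list of IRP control and other messages with an iron-responsive element, all 10 genes were tested. With lipid 2 were higher and 2 lower (median −0.02), beside 23.8% and 23.7% of all genes tested. *Alas2* fell from 34.1 ± 1.57 to 26.8 ± 2.40 CPM (log2 fold change −0.35, adjusted p = 0.00435 in edgeR's test), and glycolate oxidase *Hao1* from 27.4 ± 1.67 to 21.6 ± 1.97 CPM (−0.33, adjusted p = 0.0162 in edgeR's test). The *Hao1* call ended without lipid replicate A (adjusted p = 0.0711, edgeR) or B (0.0762) or untreated replicate C (0.0547). With itaconate also given, 1 gene was higher and 6 lower with lipid, among them the ubiquitin ligase *Herc2* (−0.34, adjusted p = 9.42e-05 in edgeR's test) and *Fbxl5*, the iron-sensing part of the ligase that degrades IRPs (−0.13, adjusted p = 0.0208 in edgeR's test). For lipid alone *Fbxl5* was at 0.01 (adjusted p = 0.859 in edgeR's test). No gene of the list passed in an itaconate comparison in edgeR's test.

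Hepcidin transcription is driven by BMP-SMAD signalling with HFE and hemojuvelin, and in inflammation by IL-6 and STAT3. Of 29 symbols listed for these inputs, 28 were in the table and 26 were tested. With lipid 7 were higher and 8 lower, beside 23.8% and 23.7% of all genes tested, with a median of −0.03. *Creb3l3*, a transcription factor of the liver, rose from 103 ± 8.44 to 215 ± 21.6 CPM (SD, n = 4), or by 1.06 on the log2 scale (adjusted p = 3.10e-11 by the quasi-likelihood test of edgeR). *Stat3* fell from 289 ± 12.3 to 187 ± 7.55 CPM (−0.63, adjusted p = 1.17e-08 in edgeR's test). *Id3*, a known target of BMP-SMAD signalling, rose from 79.6 ± 11.3 to 111 ± 14.9 CPM (0.48, adjusted p = 4.33e-06 in edgeR's test).

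Genes of the BMP-SMAD input went in both directions with lipid, here with 4 genes named after their values were seen. Hemojuvelin (*Hfe2*), a BMP co-receptor, rose from 4.25 ± 1.05 to 10.7 ± 2.97 CPM (log2 fold change 1.33, adjusted p = 1.99e-05 in edgeR's test), and the ligand *Bmp6* rose from 0.755 ± 0.146 to 1.51 ± 0.275 CPM (1.00, adjusted p = 0.00197 in edgeR's test), on only 17 to 50 counts per library in these 2 groups. The receptor *Acvr1* (−0.27, adjusted p = 0.00285) and *Id1*, like *Id3* a known target (−0.31, adjusted p = 0.0106), fell in edgeR's test. *Bmp6* is made mainly by liver endothelial cells and is also 1 of the 3 endothelial markers counted above as past the threshold with lipid, with *Lyve1* (0.63, adjusted p = 0.0380 in edgeR's test) and *Stab2* (−0.55, adjusted p = 0.0312). The part of endothelial cells in the *Bmp6* result was not tested. *Bmp6* averaged 0.755 CPM in untreated cells, 0.691 with itaconate, 1.51 with lipid and 1.24 CPM with both agents. It thus passed the filter of 1 CPM only through the lipid groups, and no conclusion is drawn from its call. *Lyve1* averaged 1.05 CPM over the 16 libraries, close to the filter, and was highest with lipid. No conclusion is drawn from the *Lyve1* call either. Among cells given itaconate, 5 genes were higher and 8 lower with lipid, with *Il6st*, the shared receptor chain for IL-6, at −0.50 (adjusted p = 2.49e-06 in edgeR's test). Itaconate alone raised 3 and lowered 1 of the 26, beside 1.96% and 2.95% of all genes tested. Those named are *Neo1*, a hemojuvelin-binding receptor (0.25, adjusted p = 0.0262 in edgeR's test), *Id3* (0.24, adjusted p = 0.0184) and *Creb3l3* (−0.29, adjusted p = 0.000343). In lipid-treated cells itaconate lowered 1, *Creb3l3*, from 215 ± 21.6 to 163 ± 14.2 CPM (−0.40, adjusted p = 6.77e-05 in edgeR's test). Without the replicate letter these calls ended in edgeR's test, with adjusted p of 0.272 for *Neo1*, 0.391 for *Id3* and 0.178 for *Creb3l3* with itaconate alone, and 0.120 for *Creb3l3* in lipid-treated cells. By libraries left out, *Neo1* ended without untreated A (0.0860), B (0.0680) or C (0.0895) or itaconate A (0.0657), C (0.117) or D (0.0515), and *Id3* without untreated B (0.0531) or D (0.0772) or itaconate A (0.0721), C (0.0509) or D (0.0786).

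The promoter of *Hamp* is shown because genes of both of its known inputs moved with lipid. RefSeq promoters (GRCm38.p6) were at hand for 7 of the 10 genes, as 11 promoters. In the 250 bases before each start, GGCGCC, the core of a BMP-responsive element, was in 2 of the 11 promoters (*Hamp* and *Tfrc*) and in 9.59% of all 32851, and TTCNNNGAA, the core of a STAT site, was in 1 of the 11 (*Hamp*) and in 7.02% of all, both strands searched. In *Hamp* the first begins 109 and the second 97 bases before the start, they do not overlap, and the capitals mark them in that order. A match is a description of the letters and no evidence of binding.
Hamp, chr7:30944030-30944279, minus strand: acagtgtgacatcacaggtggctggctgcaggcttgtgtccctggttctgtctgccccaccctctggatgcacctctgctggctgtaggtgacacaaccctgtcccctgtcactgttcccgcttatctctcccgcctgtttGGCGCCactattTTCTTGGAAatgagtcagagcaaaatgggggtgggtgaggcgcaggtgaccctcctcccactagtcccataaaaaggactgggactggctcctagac

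Hepatocytes make heme in large amounts, much of it for cytochromes. All 16 listed genes of heme synthesis, binding and breakdown were tested. With lipid 2 were higher and 3 lower (median 0.02), beside 23.8% and 23.7% of all genes tested. *Alas1*, the rate-limiting enzyme of heme synthesis in liver, rose from 234 ± 38.5 to 262 ± 42.1 CPM (log2 fold change 0.16, adjusted p = 0.0123 in edgeR's test), while ferrochelatase (*Fech*), which inserts the iron, fell from 89.4 ± 6.04 to 68.3 ± 5.39 CPM (−0.39, adjusted p = 3.11e-06 in edgeR's test). Haptoglobin (*Hp*), which binds free hemoglobin, fell from 4103 ± 772 to 3236 ± 965 CPM (−0.37, adjusted p = 0.00122 in edgeR's test). In the presence of itaconate 4 were higher and 4 lower with lipid, among them biliverdin reductase *Blvrb* at 0.23 (adjusted p = 0.000829 in edgeR's test). Heme oxygenase *Hmox1*, which frees iron from heme, did not pass with itaconate (0.18, adjusted p = 0.400 in edgeR's test) or with lipid (0.00, adjusted p = 0.986), and neither itaconate comparison gave a gene of the list past the threshold. Without the replicate letter the adjusted p in edgeR's test was 0.360 for *Alas1* and 0.184 for *Hp* with lipid, and 0.105 for *Blvrb*.

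Iron-sulfur cluster assembly uses iron in mitochondria and cytosol. Of 36 symbols listed, 32 were in the table, the other 4 being second names of genes counted once, and all 32 were tested. With lipid 9 were higher and 8 lower, beside 23.8% and 23.7% of all genes tested, with a median of 0.05. The co-chaperone *Hscb* rose from 2.12 ± 0.221 to 4.90 ± 0.812 CPM (log2 fold change 1.20, adjusted p = 1.12e-05 in edgeR's test), its partner chaperone *Hspa9* fell from 1475 ± 130 to 1276 ± 104 CPM (−0.21, adjusted p = 0.00150 in edgeR's test), and the iron-sulfur protein *Cisd2* fell from 60.9 ± 2.55 to 43.8 ± 1.44 CPM (−0.48, adjusted p = 1.25e-06 in edgeR's test). With lipid in the presence of itaconate 9 were again higher and 8 lower, with *Bola1* at 0.50 (adjusted p = 0.000564 in edgeR's test).

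Itaconate lowered few genes of cluster assembly. The mitochondrial transporter *Abcb8* fell from 23.1 to 18.9 CPM on average (n = 4 each) without lipid (−0.29, adjusted p = 0.0207 in edgeR's test) and from 19.8 ± 0.924 to 16.1 ± 1.08 CPM in lipid-treated cells (−0.30, adjusted p = 0.0313 in edgeR's test), with no overlap in either. It was the 1 gene of the 32 past the threshold without lipid. Over all genes tested, 4.91% passed with itaconate without lipid and 2.58% in lipid-treated cells. In lipid-treated cells *Nubp1*, a cytosolic assembly factor, also fell, from 24.9 ± 3.28 to 20.5 ± 1.12 CPM (−0.27, adjusted p = 0.0361 in edgeR's test). The *Abcb8* call without lipid ended with adjusted p in edgeR's test of 0.104 without the replicate letter, 0.0614, 0.0676 and 0.0753 without untreated B, C and D, and 0.0683 and 0.0876 without itaconate C and D. In lipid-treated cells it ended at 0.159 without the letter, 0.259 with only the 8 libraries, 0.0984, 0.0543 and 0.0900 without lipid A, C and D, and 0.111 and 0.0553 without lipid + itaconate A and D. The *Nubp1* call ended in 12 of 22 alternatives, with adjusted p in edgeR's test of 0.425 without the letter, 0.262 with only the 8 libraries and, without 1 library, 0.103, 0.0637, 0.0567 and 0.113 (lipid A to D), 0.145, 0.0797 and 0.0553 (lipid + itaconate A, B and D), 0.0540 (untreated A) and 0.0519 and 0.0507 (itaconate B and D).

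As a description of likeness, with no test, the gene with the highest Pearson r to each called member was looked for over 16 libraries of log2 CPM after removal of letter means, among 9425 protein-coding genes averaging 5 CPM or more. For *Tfrc* these were *Zfp335* (r = 0.978) and *Smad3* (0.977), for *Slc40a1* they were *Eef2* (0.992) and *Hdgf* (0.988), and for *Fth1* they were *Eef1a1* (0.989) and *Bcl2l1* (0.984). *Aco1* was most like *Abhd2* (0.992) and the ferroxidase gene *Cp* (0.989). For *Ftl1* the likest were *Bckdha* (0.961) and *Sod1* (0.946), and for *Trf* they were *Rhoc* (0.970) and *Maged1* (0.968). Lower values were found for *Slc11a2*, with *1810022K09Rik* (0.820) and *Cblc* (0.814), and for *Hamp*, with *Wrap53* (0.815) and *Hs6st1* (0.796). All genes share these libraries and treatments.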

How the data were processed

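Bulk RNA was measured in 16 libraries. From total RNA, the authors made stranded libraries by mRNA capture, used Cutadapt (1.18) for trimming, STAR (2.7.0f) for alignment to mm10 and RSEM (1.3.1) for quantification of GENCODE genes, with versions as in the submitters' processing notes. The deposited values are RSEM expected counts per gene without normalization. Reads that match more than 1 gene are divided by RSEM, and 5.41% of the values were not whole.

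Expected counts were rounded, and edgeR 4.0.16 was run under R 4.3.3. The filter kept genes with an average CPM of 1 or more, library composition was scaled by TMM, and 1 quasi-likelihood model with treatment and replicate letter was fitted to the 16 libraries. P values were adjusted by Benjamini and Hochberg's method for the 11675 genes, at a threshold of 0.05. The letter is a term because the authors removed a batch with a linear model. Libraries of the same letter deviated together from their group means (24 correlations, 0.144 to 0.469), above 0.1 in every case. Gene models and positions are GENCODE M21 (GRCm38), and exon lengths are the union of a gene's exons. The code was tested on simulated counts.

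The members and lists were chosen with earlier results of these data known. Beside the 10 genes, up to 3 genes of each list and comparison were named, those with the smallest p among adjusted p under 0.05 and 1 direction in 4 letters, and 2 like genes per called member. Markers were counted and summed. Alternatives were no replicate letter, median-ratio (RLE) normalization, no filter, filterByExpr, DESeq2 1.42.0, only the 8 libraries of a comparison, each library left out, and ferritin and hepcidin counts summed with near-identical copies. Depth limits precision at low counts (9 to 50 per library for *Bmp6*).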

Additional observations from a re-analysis of the deposited data

Results flagged for a closer look

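Each of the 40 combinations of an iron gene and a treatment was searched for 1 library far from the other 3 by Dixon's ratio, the gap to the nearest library over the whole range. By chance about 1 in 20 groups stand out in this way, and 2 did. *Fth1* in lipid-treated replicate B was at 3987 CPM, against 3394 to 3485 CPM in the other 3 lipid libraries (ratio 0.847). *Ireb2* in lipid + itaconate replicate B was at 102 CPM, against 94.5 to 95.6 CPM in the rest of its group (ratio 0.862).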

How the results depend on the processing

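The calls of *Tfrc*, *Slc40a1* and *Aco1* in both lipid comparisons and of *Fth1* with lipid kept direction and side of the threshold in all alternatives. Over the 15 calls of the iron genes, 288 of 334 alternative values kept both, 46 lost the call and 0 turned in direction. Of the 44 results for other named genes, 916 of 968 values kept both and 52 lost the call. RLE normalization and sums with near-identical copies ended no call of an iron gene, and RLE shifted the median log2 fold change of a comparison by at most 0.011.

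Without the replicate block, members past the threshold went from 1 to 0 for itaconate, 7 to 4 for lipid, 1 to 0 for itaconate in lipid-treated cells and 6 to 3 for lipid in the presence of itaconate, and all genes from 573 to 23 for itaconate, 5546 to 4149 for lipid, 301 to 9 for itaconate in lipid-treated cells, 5483 to 3990 for lipid in the presence of itaconate and 1 to 0 for the interaction. With only the 8 libraries of a comparison, itaconate gave 3 members and 1859 genes, and itaconate in lipid-treated cells 0 members and 14 genes. No filter gave 1091 genes for itaconate, 2 members and 725 genes for itaconate in lipid-treated cells and 231 genes for the interaction. DESeq2 gave 2 members and 512 genes for itaconate in lipid-treated cells and 36 genes for the interaction, filterByExpr 0 members there and 2 genes for the interaction, and RLE 2 genes for the interaction. The cause was not tested.

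With each library left out in turn, members past the threshold ran from 0 to 1 for itaconate and 0 to 3 for itaconate in lipid-treated cells, and all genes from 149 to 1051, 59 to 891 and, for the interaction, 0 to 8. The *Ireb2* interaction, 0.00051 on the log2 scale, was −0.00085 without the replicate block, −0.0054 with RLE, −0.0073 with no filter, −0.0083 with filterByExpr, −0.0053 with DESeq2 and −0.0279 to 0.0276 with a library left out. Other values near 0, none of them past the threshold, also turned in direction with a library left out. For *Aco1* these ran from −0.0149 to 0.112 (interaction), −0.0129 to 0.0305 (itaconate) and −0.0034 to 0.124 (itaconate in lipid-treated cells), for *Slc11a2* from −0.0453 to 0.0099 (itaconate) and −0.0168 to 0.0517 (lipid). For *Tfr2* they ran from −0.0699 to 0.0230 (interaction), −0.0275 to 0.0479 (itaconate) and −0.0453 to 0.0375 (itaconate in lipid-treated cells), and for *Trf* from −0.0531 to 0.0179 (itaconate in lipid-treated cells). The cause was not tested.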
